A study of Homo sapiens with 4 samples.

Results

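The MST and MLT elements were chosen by name, as every transposable element (TE) feature whose family name begins with MST or MLT. They comprised 7686 of the 261609 TE loci listed, in 46 of 655 families. Counts had been assigned to features named by family, by a position number and by a locus number. A family at 1 position number is called a class here, and 88 of the 1383 listed classes belonged to MST or MLT families. The study treated 2 human cancer cell lines, H1299 (non-small cell lung cancer) and HCT116 (colorectal cancer), and sequenced single cells with the 10x Genomics 5′ chemistry, which reads polyadenylated RNA from its 5′ end. The question was which RNAs start within TEs when DNA methylation and histone deacetylation are blocked together. The control library of each line received DMSO, the solvent. The treated library (DAC+SB) received decitabine (DAC, a DNA methyltransferase inhibitor) at 500 nM for 72 h and SB939 (a histone deacetylase inhibitor) at 500 nM for 18 h, in medium renewed every 24 h. Passages ran from 5 to 10. There was 1 library in each of the 4 groups, so no difference below has a replicate check and no test was made.

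MST and MLT1 elements are remnants of mammalian apparent LTR retrotransposons (MaLR), a group that also holds the THE1 elements. MLT2 elements are long terminal repeats (LTR) of the ERVL retroviruses. An LTR carries the promoter of its element, and most copies in the human genome are solitary LTRs left after recombination removed the internal part, which the names ending in -int denote. In somatic cells such promoters are commonly held silent by DNA methylation and repressive chromatin, and some have become the start sites of host transcripts.

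The TE loci carry no coordinates in the files, so the bases of the elements themselves were not read. Some loci could still be tied to named genes, because their counts matched those of a gene feature cell by cell, as described further on. For 3 of these genes the first 60 bases of a transcript in GENCODE release 29 (GRCh38) are shown, as annotated starts of genes whose counts were assigned to an element as well. No source used here says which of the annotated starts a gene feature stands for. A feature of CRNDE matched an MSTA locus. Its transcript CRNDE-214, shown because it holds the run described below, begins on chr16:54874109-54874168 (minus strand), within an exon of 114 bases. A feature of AC106875.1 matched another MSTA locus, and its transcript AC106875.1-201 begins on the plus strand of chromosome 2 with an exon of 33 bases from 11681460 to 11681492. Its 60 bases therefore run into a second exon. A feature of LINC00052 matched an MSTC locus, and LINC00052-201 begins on chr15:87576929-87576988 (plus strand). Capitals mark the longest run shared between 2 of the 4 matched genes found in GENCODE release 29.
CRNDE-214: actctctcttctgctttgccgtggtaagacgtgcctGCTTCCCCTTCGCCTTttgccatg
AC106875.1-201: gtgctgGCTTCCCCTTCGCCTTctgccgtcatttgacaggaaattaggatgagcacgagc
LINC00052-201: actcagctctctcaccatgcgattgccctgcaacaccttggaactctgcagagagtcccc
The shared run, GCTTCCCCTTCGCCTT, has 16 bases. Searched on both strands, it lay in the first 60 bases of 8 of 206435 transcripts of that length or longer (0.00388%), which belong to 4 genes. The run was picked as the longest match, so its rarity is no test of a tie between the genes. AC106875.1 had it in 2 of 2 transcripts and CRNDE in 1 of 14. IL2RB and SLC14A2, which no locus here matched, held the others. Gene names were matched by symbol, and no source used here says whether these bases belong to an MSTA copy.

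The 4 libraries held 15289 cells (3578 to 4327 each). Gene and TE counts together came to 64524196, 62428673 and 62639099 in control H1299, treated H1299 and control HCT116, and to 38927267 in treated HCT116. That last library was also the shallowest per cell, with a median of 8449 counts against 15784.5 to 17369.5. Barcodes found in more than 1 library numbered 131 of 15158. Of the markers, the 6 H1299 genes summed to 2543 and 1240 CPM (counts scaled to a library total of 1e6) in the H1299 libraries (DMSO first) and to 87.5 and 295 in the HCT116 libraries. The 6 HCT116 genes summed to 118 and 62.8 CPM in HCT116 and to 26.9 and 17.8 in H1299. CDH1 had 0 and EPCAM 1 count in control H1299, and 37 and 279 in treated H1299. VIM held 147273 of the 164080 H1299-marker counts in control H1299, and EPCAM 5054 of the 7377 HCT116-marker counts in control HCT116. Not every gene separated the lines. LGALS4 had 3 and 100 counts in H1299 and 5 and 42 in HCT116, and ZEB1 had 14.4 and 14.1 CPM in treated H1299 and HCT116. All intervals below are 95% intervals for counting error only.

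With DAC+SB the MST and MLT elements had more counts in both lines and drew them from more loci. They held 7598 counts (117.8 CPM) in control H1299 and 42081 (674 CPM) in treated H1299. In HCT116 they held 9614 counts (153 CPM) with DMSO and 39544 (1016 CPM) with DAC+SB. The treated library was the higher in each line. As a share of all TE counts the elements nevertheless went from 5.93% to 2.18% in H1299 and from 4.81% to 1.83% in HCT116. Loci with at least 1 count numbered 1101, 2791, 1123 and 4449 in the order control H1299, treated H1299, control HCT116, treated HCT116. When the libraries were thinned to a common total, the numbers were 778, 2119, 820 and 4449. The 10 leading loci held 65.1% of member counts in control H1299 and 66.1% in control HCT116, against 49.5% and 28.7% with DAC+SB.

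Which classes are listed differed between libraries, and this limits what can be compared. No listed class had fewer than 20 counts, and nothing is known of the count of an unlisted class, which may be above or below that. Of the 88 classes, 4 appeared in every library and 54 in 1. H1299 had 13 classes listed in both libraries, treated H1299 had 17 more that held 25566 counts (60.8% of its member counts), and control H1299 had 14 more (2688 counts, 35.4%). HCT116 had 16 classes in both libraries, 41 in the treated library alone (10065 counts, 25.5%) and 12 in the control alone (1157 counts, 12%). Ratios are therefore formed over the classes that a line lists under both treatments. Where a value over all listed classes is given as an alternative, it counts an unlisted class as 0.

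Over those shared classes the elements were higher with DAC+SB in both lines. H1299 went from 76.1 CPM to 264.5 CPM, a ratio of 3.48 or a log2 ratio of 1.80 (1.75 to 1.84). HCT116 went from 135 CPM to 757 CPM, a ratio of 5.61 or a log2 ratio of 2.49 (2.45 to 2.52). The H1299 log2 ratio was the lower by 0.69, at a difference of -0.69 (-0.75 to -0.63). Without the locus with most counts in each line the log2 ratios were 1.28 and 2.64, so leaving it out lowered the H1299 ratio and raised the HCT116 ratio. The 2 lines sum different classes, and MSTA enters the HCT116 ratio alone, so the difference is partly one of classes. Over the 4 classes listed in every library it was -0.24 (-0.32 to -0.16), and over all listed classes -0.21 (-0.26 to -0.16). Both THE1, the sister group of MaLR elements, and LTR12, LTRs of another retrovirus that led the TE counts with DAC+SB, had larger ratios. The log2 ratio of THE1 was 4.54 (4.50 to 4.58) for H1299 and 4.22 (4.2 to 4.24) for HCT116. That of LTR12 was 6.67 (6.64 to 6.69) and 5.90 (5.89 to 5.92). None of these intervals reached those of the MST and MLT elements.

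**Figure D1:**
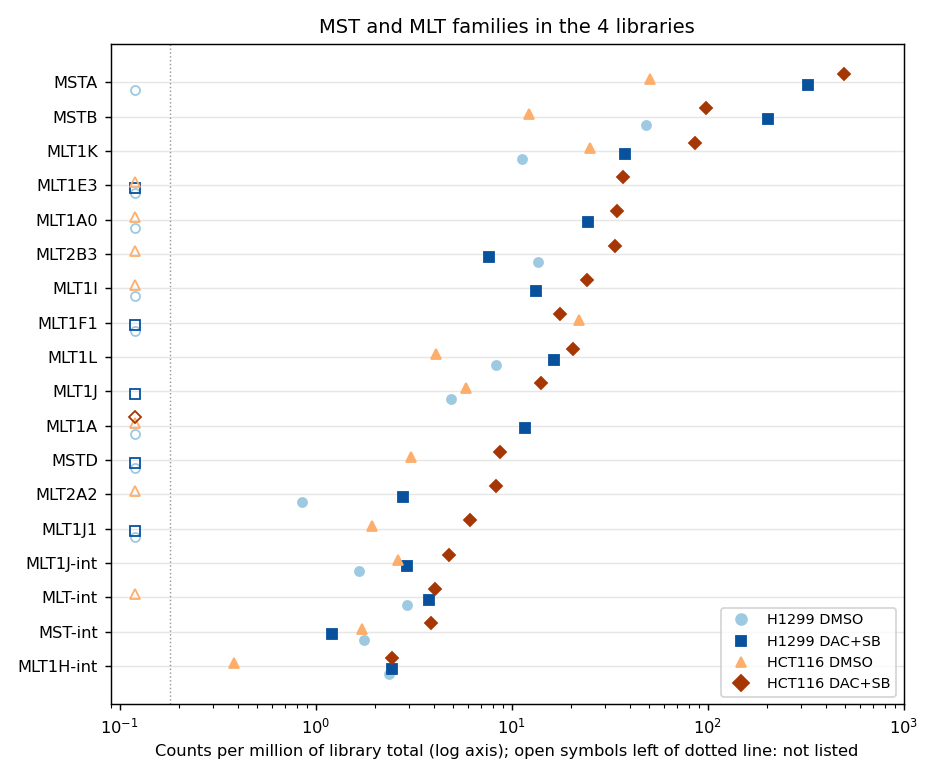
Level of 18 MST and MLT families in the 4 libraries, in CPM on a log axis; open symbols left of the dotted line stand for a family not listed in that library. MSTA and MSTB stand at the top with DAC+SB, and several families, such as MLT1A0 and MLT1E3, are listed only with DAC+SB.

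Among the 3 name groups, MST had the most counts with DAC+SB. MST names held 3251 counts in control H1299, 33363 in treated H1299, 4600 in control HCT116 and 24500 in treated HCT116. MLT1 names held 3050, 7305, 4890 and 11750 counts in the same order, and MLT2 names held 1108, 1175, 124 and 3136. Listed MST counts were thus close to those of MLT1 with DMSO and well above them with DAC+SB in both lines. In control H1299, however, MSTA was not listed and its count is unknown. There 1 MSTB locus held 3048 of the MST counts (93.8%). Over shared classes the log2 ratio of MST was 2.03 (1.98 to 2.09) for H1299 and 3.08 (3.04 to 3.13) for HCT116. MLT1 had 1.5 (1.40 to 1.61) and 1.12 (1.06 to 1.18). MLT2 had 0.66 (0.49 to 0.83) and 1.49 (0.93 to 2.06), the second from 1 class with 75 and 43 counts. Without the leading locus MLT2 had 1.47 and 2.69. H1299 minus HCT116 was -1.05 for MST and 0.38 for MLT1, but the lines share few classes and these signs depend on the classes summed. Over all listed classes MST had 3.41 in H1299 and 3.10 in HCT116 and MLT1 had 1.31 and 1.95, which turns both signs, while MLT2 had 0.13 and 5.35. Over classes listed everywhere MST had 2.03 and 2.90, and MLT1 had 1.73 and 1.68. MLT-int, which the design left outside the 3 groups, held 189, 238 and 158 counts in control H1299, treated H1299 and treated HCT116 and was absent from the control HCT116 list. Its H1299 log2 ratio was 0.38 (0.10 to 0.66).

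Families were counted as higher or lower at a ratio of at least 4 or at most 0.25, if the higher library held 100 counts or more. In H1299, 1 of 7 MST and MLT families was at least 4-fold higher, beside 17.4% of all 144 TE families, and 0 were at least 4-fold lower, beside 0% of all. In HCT116, 2 of 11 were at least 4-fold higher, beside 36.9% of all 157 TE families, and 0 were at least 4-fold lower, beside 0% of all. The median log2 ratio of the MST and MLT families was 1.61 in H1299 and 1.38 in HCT116, against 0.20 and 1.38 over all TE families. In HCT116 the members' median was thus that of TE families at large, while in H1299 it lay above. Between 80% and 100% of THE1 and LTR12 families were at least 4-fold higher in either line (4 of 5 and 4 of 4 in H1299, 5 of 6 and 6 of 6 in HCT116).

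MSTA, the family with most counts among the treated libraries, was not listed in control H1299. It had 20432 counts in treated H1299, 3197 in control HCT116 and 19448 in treated HCT116. The HCT116 log2 ratio was 3.29 (3.24 to 3.35), and 3.17 without its leading locus. MSTA was thus spread over many copies with DAC+SB. At position 11, which held 91.3% and 94.0% of its counts in treated H1299 and HCT116, counts came from 809 loci in treated H1299 and 875 in treated HCT116, and the leading locus held 8.5% and 9.1%. With DMSO, HCT116 counted 207 loci at that position and the leading one held 32.4%.

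MSTB, by contrast, was dominated by single copies. It had 3137, 12635, 766 and 3813 counts in control H1299, treated H1299, control HCT116 and treated HCT116. The log2 ratio was 2.06 (2.0 to 2.11) in H1299, the only family at least 4-fold higher there, and 3.0 (2.89 to 3.12) in HCT116. Locus 3404000 held 97.2% and 96.0% of MSTB counts in the H1299 libraries (DMSO first). In HCT116 locus 5427112 led instead, with 89.8% and 50.5%. Without the leading locus of the line the log2 ratios were 2.54 and 5.28, the second mostly from locus 3404000. Without both loci MSTB went from 84 to 334 counts in H1299 (2.04, 1.69 to 2.40) and from 75 to 449 in HCT116 (3.27, 2.91 to 3.64).

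Of the smaller MST families, MSTD had 193 counts with DMSO and 341 with DAC+SB in HCT116 over the shared class, a log2 ratio of 1.51 (1.25 to 1.77). MST-int, the internal part, had 108 and 106 counts in HCT116 and 69 and 76 in H1299. Its log2 ratios of 0.66 (0.26 to 1.06) and 0.19 (-0.30 to 0.68) were lower than that of MSTA or MSTB. All names ending in -int, summed, had log2 ratios of 0.62 in H1299 and 1.06 in HCT116.

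MLT1K, listed in every library, led the MLT1 families in both treated lines. Over the shared class it had 731 counts in control H1299 and 2360 in treated H1299. HCT116 had 1567 with DMSO and 3087 with DAC+SB. The log2 ratios were 1.74 (1.62 to 1.86) and 1.66 (1.58 to 1.75), the same within counting error. Locus 1412150 held most of its DMSO counts, and without it the ratios were 2.78 and 3.13. The other MLT1K copies, summed, thus had a higher ratio than the family with its leading copy.

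The other MLT1 families differed among themselves. In HCT116, MLT1J1 had 122 counts with DMSO and 240 with DAC+SB (log2 1.66, 1.34 to 1.99). Without locus 2450803 it went from 14 to 89 counts, at 3.35. MLT1L had 258 and 402 (1.33, 1.10 to 1.56), and MLT1J had 366 and 553 counts (1.28, 1.09 to 1.48). Among families with 100 counts or more, MLT1F1 in HCT116 was the only one lower with DAC+SB in either line, at 1383 counts with DMSO and 685 with DAC+SB (log2 -0.33, -0.46 to -0.19). One locus set that direction, as without locus 1419212 the family went from 147 to 427 counts, a log2 ratio of 2.22. Among internal parts, MLT1J-int had 62 and 183 counts in H1299 (1.61, 1.19 to 2.05) and 118 and 187 in HCT116 (1.35, 1.01 to 1.70). Without its leading locus MLT1J-int had 0.74 and 1.86, and over all listed classes 0.82 and 0.88. MLT1H-int had 117 and 154 counts in H1299 (0.44, 0.09 to 0.80), and -0.22 without its leading locus.

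Several MLT1 families were listed only with DAC+SB, so no ratio was formed. MLT1A0 had 1528 counts over 307 loci in treated H1299 and 1349 counts over 307 loci in treated HCT116. The same number of loci hid different leaders, with locus 2844087 holding 46.1% in H1299 and locus 4308818 holding 10.6% in HCT116. MLT1I had 830 and 948 counts, and locus 2443608 held 58.3% and 50.9%, the same copy in both lines. MLT1A was listed only in treated H1299, with 734 counts of which locus 1077454 held 59.1%. MLT1E3 was listed only in treated HCT116, with 1443 counts, and is described by cell below.

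Among MLT2 families, MLT2A2 had 55 counts with DMSO and 175 with DAC+SB in H1299 (log2 1.72, 1.27 to 2.18). MLT2B3 had 382 and 480 counts there over the shared class, a log2 ratio of 0.38 (0.18 to 0.57). Its locus 4423853 went the other way, from 244 to 100 counts, and without it the ratio was 1.51. A further MLT2B3 class, at position 10, had 500 counts in control H1299 and was not listed in treated H1299. Locus 5444502 held 84.0% of that class.

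**Figure D2:**
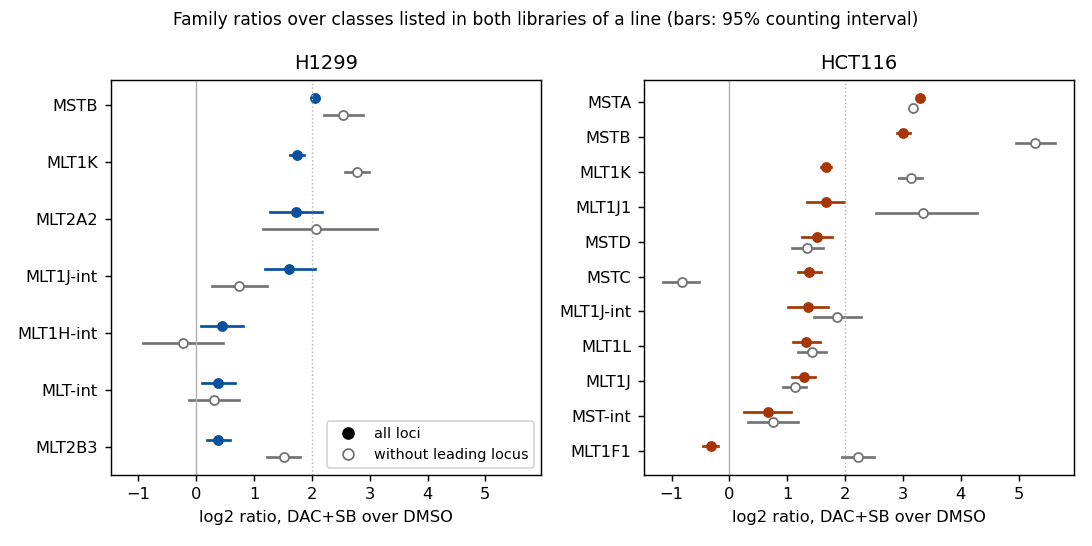
Log2 ratio, DAC+SB over DMSO, of each MST and MLT family with 100 counts or more where it was higher, over classes that a line lists under both treatments. Filled points use all loci, open points leave out the family's leading locus, bars are 95% counting intervals and the dotted line marks 4-fold; MLT1H-int in H1299 and MSTC and MLT1F1 in HCT116 change sign when the leading locus is left out.

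At the level of single copies, 8 loci in H1299 and 52 in HCT116 lay in shared classes and had 100 counts or more where they were higher. In H1299, 3 of 8 were at least 4-fold higher, beside 90.7% of all 1302 TE loci, and 0 of 8 at least 4-fold lower, beside 0.154%. In HCT116, 43 of 52 were at least 4-fold higher, beside 94.2% of all 1999 TE loci, and 2 of 52 at least 4-fold lower, beside 0.35%. The members' median log2 ratio was 1.24 in H1299 and 6.25 in HCT116, against 6.67 and 6.94 over all loci. The H1299 loci include no MSTA copy, since that family was not listed with DMSO. A locus could enter through its treated counts alone, so the shares and medians above depend on this filter. Over all listed classes, 12 member loci had 100 counts or more in control HCT116, against 65 in treated HCT116. For control and treated H1299 the numbers were 8 and 56.

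The MSTB locus 3404000 had the most counts of any member locus in both H1299 libraries and separated the lines. By counts it ranked 162 in control HCT116 and 4 in treated HCT116. It had 3048 counts in control H1299, 12133 in treated H1299, 3 in control HCT116 and 1437 in treated HCT116. It was active in control H1299 and near 0 in control HCT116, and the treated library was higher in both. The log2 ratio was 2.04 (1.98 to 2.10) in H1299 and 9.59 (8.04 to 11.87) in HCT116. The MSTB locus 5427112 showed the reverse preference, with 5, 168, 688 and 1927 counts. Its log2 ratios were 5.12 (3.87 to 6.76) in H1299 and 2.17 (2.05 to 2.30) in HCT116. Each copy was therefore high with DMSO in 1 line and had its larger ratio in the other.

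The MLT1K locus 1412150 was counted in every library at 513, 910, 1326 and 1774 counts. Its log2 ratios were 0.87 (0.72 to 1.03) for H1299 and 1.11 (1.00 to 1.21) for HCT116. A second MLT1K copy, locus 2335055, had 81, 359, 40 and 169 counts and log2 ratios of 2.20 (1.84 to 2.56) and 2.77 (2.26 to 3.30). Both copies were higher with DAC+SB in both lines.

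Several MSTA copies among the 52 HCT116 loci were at or near 0 with DMSO. Loci could enter through treated counts alone, so this describes the copies named here and not the members at large. Locus 5717568 had 16 counts in control HCT116, 1661 in treated HCT116 and 1517 in treated H1299, a log2 ratio of 7.38 (6.68 to 8.19) in HCT116. Locus 2617345 had 2, 561 and 1012 counts in the same libraries (8.82, 6.96 to 11.87). Locus 5298708 had 0, 664 and 1589 counts, at least 8.48 higher on the log2 scale when 0 is set to a floor of 3 counts. These copies were well counted in both treated lines. Locus 4590136 was another, with 0, 302 and 927 counts, at least 7.34 higher.

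A few copies were lower with DAC+SB. In HCT116 the MSTC locus 1758771 had 300 counts with DMSO and 3 with DAC+SB, a log2 ratio of -5.96 (-8.24 to -4.40). The MSTC family as a whole was higher, since locus 2044407 had 2 counts with DMSO and 425 with DAC+SB (8.42, 6.56 to 11.47). The 2 copies thus exchanged the lead, and without locus 2044407 the family's log2 ratio went from 1.38 to -0.83. The MSTA locus 4911082 went from 153 to 19 counts (-2.32, -3.09 to -1.63). The MLT1F1 locus 1419212 went from 1236 to 258 (-1.57, -1.77 to -1.38) and the MSTA locus 2936544 from 1164 to 245 (-1.56, -1.77 to -1.36). Locus 2936544 was the leading MSTA copy in control HCT116, with 36.4% of the family's counts, and held 1.26% with DAC+SB. A further MSTA copy, locus 6199392, had 521 and 252 counts (-0.36, -0.58 to -0.14), a small difference once the lower total of the treated library is allowed for.

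**Figure D3:**
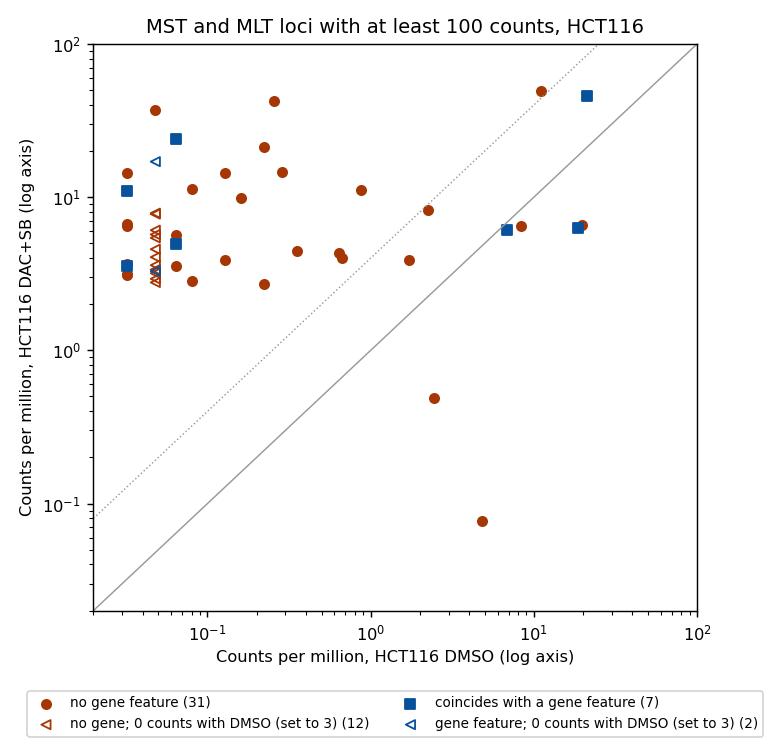
CPM in control HCT116 (x) and treated HCT116 (y) of the 52 MST and MLT loci in shared classes with at least 100 counts, both on log axes, with lines at equality and 4-fold. Open triangles are loci with 0 counts with DMSO, drawn at the floor of 3 counts, and squares and blue triangles are loci that coincide with a gene feature; 43 loci lie on or above the 4-fold line and 6 below equality.

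The treated lines shared part of their MST and MLT loci, compared over the classes that both treated libraries list, which leaves out families such as MLT1E3. In these classes loci with at least 10 counts numbered 260 in treated H1299 and 332 in treated HCT116, and 164 were in both, 63.1% of the H1299 loci and 49.4% of the HCT116 loci. Over all TE loci the shares were 64.7% and 41.8%. For LTR12 the shares were 93.3% and 74.1%, and for THE1 75.3% and 51.7%. Across 238 MSTA loci at position 11 with 10 counts or more in either treated line, Pearson's r of log2 values was 0.42 and Spearman's rho 0.37, as a description over loci of 1 pair of libraries.

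Position numbers, which no source used here explains, differed between families. The leading position was 11 for MSTA and MSTB in both treated lines, 11 in H1299 and 12 in HCT116 for MSTC, and 13 for MSTD. Over MLT1 families the median leading position was 11.5 in H1299 (9 to 15) and 10 in HCT116 (5 to 27), and over MLT2 families 11 in both. THE1 families had a median of 10 (10 to 11) and LTR12 families of 20 (13 to 59). MSTA, MSTB and the MLT2 names thus led at 11 or below, next to THE1, while MSTD shared its leading number with the lowest LTR12 family.

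To see which loci start gene transcripts as well, the counts of each locus were set against those of 61838 gene features, cell by cell and within a library. The overlap index is the number of counts in common divided by the number in either, so it is 1 where the counts are identical. Among 95 loci with at least 100 counts in a library, 15 (15.8%) reached an index of 0.5 with a gene feature, a threshold chosen after seeing the values. Over all 2704 TE loci with as many counts the share was 6.36%, over 397 THE1 loci 13.4% and over 1380 LTR12 loci 4.42%. Among the MST and MLT loci the lowest index above the threshold was 0.57 and the highest below it 0.43, with medians of 0.979 and 0.063 on either side. Of the 15, 9 were among 61 MST loci, 5 among 23 MLT1 loci and 1 among 10 MLT2 loci. They held 14.3%, 12.2%, 33.2% and 14.2% of member counts in control H1299, treated H1299, control HCT116 and treated HCT116. The largest share was thus in control HCT116. Without these loci the shared-class log2 ratio was 1.88 in H1299 and 2.85 in HCT116. A locus and a gene that coincide are not separate measurements, and both enter the library total. The index cannot reach 0.5 where a locus is a small part of a larger feature, so such matches are missed. The MSTA locus 5727767 had all of its 106 counts in treated H1299 in common with TUSC3 (2062 counts), at an index of 0.051.

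**Figure D4:**
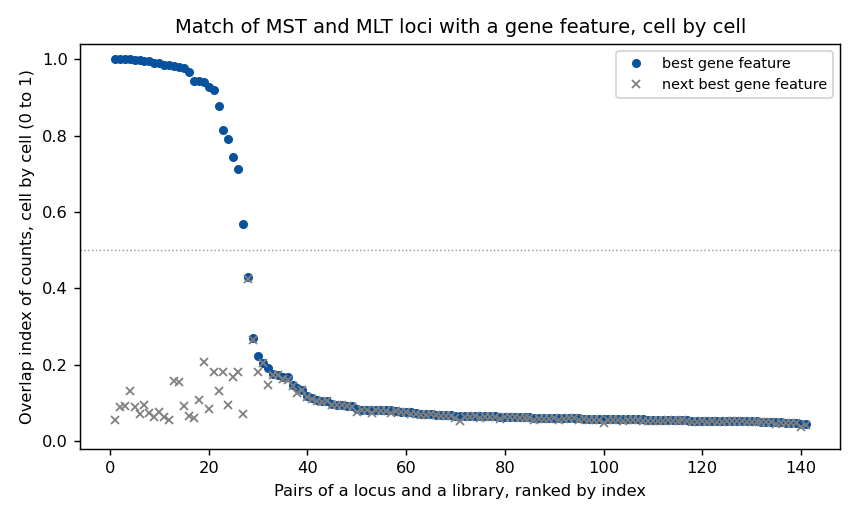
Overlap index with the best gene feature (circles) and the next best (crosses) for 141 pairs of a locus and a library, ranked from high to low. In 27 pairs the index with the best feature exceeds the dotted threshold of 0.5 while the next best stays at or below 0.21, and the remaining pairs show little gap between best and next best.

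CRNDE, a long noncoding RNA known to be raised in colorectal tumours, coincided with the MSTA locus 2212152. That locus had 485 counts in treated H1299, 4 in control HCT116 and 937 in treated HCT116, and its class was not listed in control H1299. All 937 counts in treated HCT116, and all 485 in treated H1299, were counts of a CRNDE feature. The locus was near 0 in control HCT116 and its HCT116 log2 ratio was 8.56 (7.2 to 10.44). The match did not hold there, since the CRNDE feature of the same number, 1, had 531 counts in control HCT116, and 1428 in control H1299. A CRNDE feature numbered 2 was listed in treated H1299 alone, with 575 counts. All 937 counts of feature 1 in treated HCT116 were locus counts, against at most 4 of its 531 in control HCT116. Number 1 of CRNDE thus did not stand for the same start alone in both HCT116 libraries. Whether a feature number does so for the other genes is not known. Over all features CRNDE had 2314, 1903, 768 and 1242 counts in the 4 libraries. Its log2 ratio was -0.23 (-0.32 to -0.15) in H1299 and 1.38 (1.25 to 1.51) in HCT116. The locus held 937 of the 1242 CRNDE counts in treated HCT116, so the higher HCT116 ratio rested on counts of the locus. The start of CRNDE-214, the transcript with the run shown above, lies 54718 bases downstream of the start site that RefSeq gives for the gene. RefSeq places CRNDE at chr16:54918863-54928886 (GRCh38.p14, minus strand). The CRNDE-214 start, at 54874168, thus lies past the downstream end of the RefSeq gene.

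LINC00052, a long noncoding RNA gene at chr15:87576929-87579686 (GRCh38.p14), coincided with the MSTC locus 2044407 that led its family in treated HCT116. The gene had 0 counts in control H1299, 1 in treated H1299, 3 in control HCT116 and 478 in treated HCT116. It was high in 1 library only, and 424 of the 425 locus counts there were LINC00052 counts. The HCT116 log2 ratio of the gene was 8.0 (6.45 to 10.29), with an unlisted feature counted as 0. Feature 1 of the gene had 424 counts with DAC+SB and was not listed in control HCT116. Its other counts went from 3 to 54.

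FABP6, an ileal bile acid binding protein gene at chr5:160187381-160238722 (GRCh38.p14), was the 1 protein-coding gene among the 3 of the 15 whose positions were read from RefSeq. All 273 counts of the MLT1O locus 4952136 in control HCT116 were FABP6 counts, at an index of 0.57. They were a small part of the gene, and the class of that locus was listed in no other library, so the gene values below say little of the locus. Over all features FABP6 had 5 counts in control H1299, 392 in treated H1299, 3719 in control HCT116 and 1149 in treated HCT116. It was high in control HCT116, lower there with DAC+SB (log2 -1.01, -1.10 to -0.91) and higher in H1299 (6.34, 5.11 to 7.97). Feature 1 of FABP6, with 212 counts in treated H1299, was not listed in control H1299 and is counted there as 0.

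The remaining matches were mostly to genes with clone-based names. Gene values here sum all features of a name, and a feature not listed in a library is counted there as 0. RP11-307P5.1 coincided with the MSTA locus 5298708 and had 7, 1742, 3 and 693 counts, log2 ratios of 8.01 (6.96 to 9.32) and 8.54 (6.98 to 10.82). Its listed counts were near 0 with DMSO and high with DAC+SB in both lines. Feature 1 of RP11-307P5.1 held 1513 and 641 of the treated counts and was listed in neither control. AC106875.1 coincided with the MSTA locus 2936544 and had 0, 255, 1408 and 306 counts. It was lower with DAC+SB in HCT116 (-1.52, -1.70 to -1.34) and at least 6.46 higher on the log2 scale in H1299, where the 0 is set to 3 counts. No feature of AC106875.1 was listed in control H1299, so that bound assumes no more than 3 counts there. RP11-433M22.2 coincided with the MLT1I locus 2443608 and had 15, 536, 81 and 506 counts. RP11-438N16.1 coincided with the MLT1K locus 1412150 in every library and had 1026, 1628, 2446 and 2538 counts, log2 ratios of 0.71 (0.60 to 0.83) and 0.74 (0.66 to 0.82). The first of these genes had large ratios and the last small ones, in counts that include those of their loci. In control H1299, GS1-179L18.1 held 412 of the 420 counts of the MLT2B3 locus 5444502. That locus was in a class not listed with DAC+SB, while the gene went from 671 to 305 counts (-1.09, -1.29 to -0.89). Of the 15 genes, 9 had 100 counts or more in a library of each line, and 4 of these had log2 ratios of opposite sign in the lines, beside 24.7% of all 12644 such genes. The MSTB loci 3404000 and 5427112, which led the 2 treated libraries, matched no gene feature at that threshold.

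Counts were also followed by cell, after each cell had been thinned to 3300 counts, which left out 402 shallower cells of treated HCT116. A member count was then found in 32.4% (30.9 to 34.0) of control H1299 cells and 82.2% (81.0 to 83.4) of treated H1299 cells. In HCT116 the shares were 37.0% (35.4 to 38.6) and 91.3% (90.4 to 92.2). Unthinned shares were 77.6%, 98.3%, 85.3% and 97.9%, at the depths given above. Cells with a member count were thus the majority only with DAC+SB once depth was equal, though the libraries list different classes. Over classes listed in every library H1299 went from 18.9% to 50.4% and HCT116 from 11.3% to 41.4%, so that treated HCT116 was no longer above 50%. For THE1 the thinned shares were 22.7%, 97.0%, 49.5% and 99.7%.

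The MSTB locus 3404000 was found in 14.6% of thinned control H1299 cells, 42.4% of treated H1299 cells and 10.2% of treated HCT116 cells, and in none of 3658 control HCT116 cells (up to 0.101%). Unthinned, control HCT116 had it in 0.0820% of cells, the level in a line where the copy is near 0. In treated H1299 its counts were spread over many cells, the highest of which held 30 of 12133. How much of that spread is free RNA in the droplets was not tested. Most loci were spread in this way, with a median of 1.20 counts per cell with a count among 56 loci in treated H1299 and 1.18 among 65 in treated HCT116. In thinned treated cells, Spearman's rho over cells was 0.35 in H1299 and 0.37 in HCT116 between MSTA and THE1, and 0.22 and 0.13 between MSTA and LTR12. The cells share library and depth, and these are descriptions of sparse counts.

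Some MLT2B3 copies were less spread in treated HCT116, with 46.7% and 43.6% of the counts of loci 555597 and 5942823 in 10 cells. MLT1E3 departed furthest from the spread of most loci. Its loci 4636788 and 4636841 had 1001 and 382 counts in treated HCT116, found in 101 and 22 of 4327 cells. Cells with at least 10 counts of the 2 loci, a choice made after seeing the values, numbered 21 (0.485%, 0.301 to 0.741). They held 1173 of the 1383 counts (84.8%) and 0.520% of all counts of the library. The family was thus carried by very few cells, of which the highest had 185 counts of these loci. Their median total was 9070 counts against 8449 in the library, and their median TE share 7.19% against 5.01%.

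The same 21 cells held larger shares of some other members and of some genes known from the early embryo, which were picked for that share. They held 16.5% (13.9 to 19.2) of MLT2A1 counts at position 11 and 6.77% (4.29 to 10.1) of MLT2A2 counts at position 11. These intervals take each count as independent, although counts can come several to a cell, and do not cover the spread between cells. A few MLT2A1 copies lay almost wholly in them, such as locus 2413329 with 28 of 29 counts. Over the 28 other classes with 100 counts or more in treated HCT116 the median share was 0.530%, and MSTA at position 11 had 0.738%. MSTB had 0.315%, and 16.5% was the highest share among those 28. ZSCAN4, a cleavage-stage embryo gene, had 0, 3, 0 and 81 counts in the 4 libraries, and 76 of the 81 lay in 4 of these cells. PRAMEF2, of a family expressed in early embryos, had 34 of 34 counts in 4 of them, and PRAMEF1 had 32 of 33 in 3. TRIM43, likewise known from the cleavage stage, had 1, 17, 0 and 125 counts, with 54 of the 125 in 4 of these cells. Each of these genes was thus found in at most 4 of the 21 cells, and TRIM43 had 61 cells with a count in the library. Other genes known from that stage were spread more widely over treated HCT116, such as DUXA with 177 counts in 143 cells and KHDC1L with 144 counts in 107 cells. The MLT1E3 locus 4636841 itself coincided with RP11-432M8.17, which had 365 of 412 counts there. No PRAMEF1 or PRAMEF2 count was found in the other 3 libraries. Of the 7 treated HCT116 cells with a ZSCAN4 count, 4 were among the 21, so counting from that gene restates the same overlap. Those 7 cells held 35.5% of MLT1E3 counts at position 12, 20.1% at position 13 and 0.170% of all counts.

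**Figure D5:**
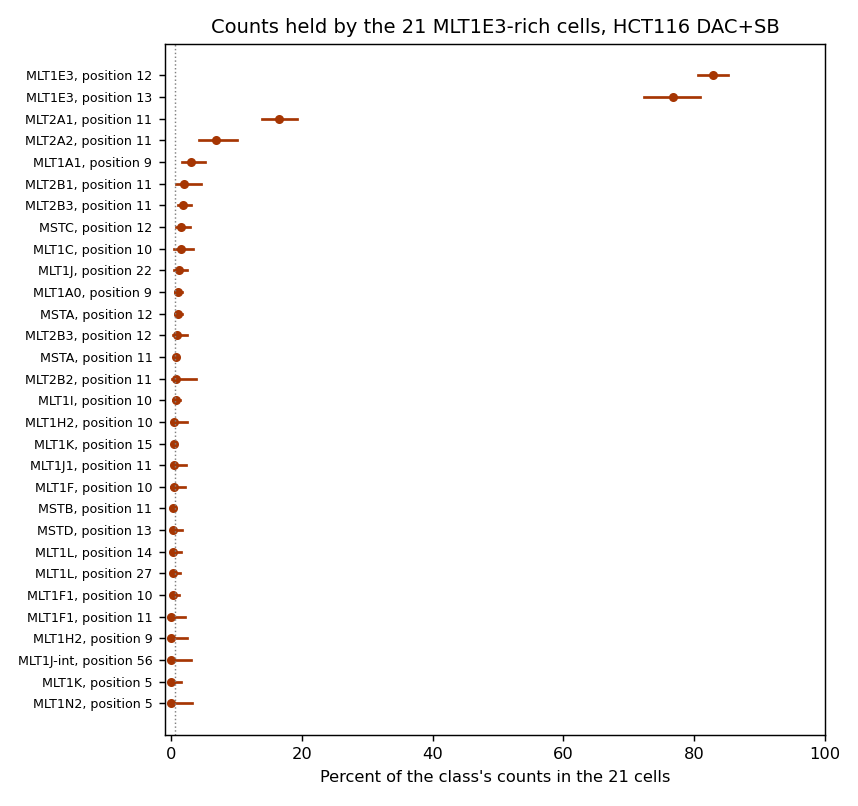
Percent of the counts of each MST and MLT class with 100 counts or more in treated HCT116 that lay in the 21 cells with at least 10 counts of the MLT1E3 loci, with exact 95% binomial intervals; the dotted line is the cells' share of all counts. The intervals take each count as independent and do not cover the spread between cells. MLT1E3 at positions 12 and 13 reaches 82.9% and 76.8%, MLT2A1 16.5% and MLT2A2 6.77%, and the other classes lie at 3.05% or less.

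Genes that act to silence such elements were read from a list of 12. Their counts, and those of all genes beside them, were summed over features listed in both libraries of a line. Features not listed in both were left out, so the counts need not be gene totals. Whether such a feature stands for the same start in both libraries is not known. DNMT1 maintains DNA methylation and UHRF1 recruits it, DNMT3A and DNMT3B add new methylation, HDAC1 to HDAC3 are histone deacetylases, TRIM28 recruits SETDB1, which lays down repressive histone methylation, and MPHOSPH8, FAM208A and MORC2 belong to the HUSH silencing machinery. UHRF1 had 4938 and 1964 counts in H1299 and 7761 and 1103 in HCT116, log2 ratios of -1.28 (-1.36 to -1.21) and -2.13 (-2.22 to -2.04). DNMT1 had 14762 and 6738 counts in H1299 (-1.08, -1.13 to -1.04) and 12600 and 5107 in HCT116 (-0.62, -0.66 to -0.57). Both were lower with DAC+SB in both lines. MPHOSPH8 was higher in both, with 2025 and 2440 counts in H1299 (0.32, 0.23 to 0.40) and 4352 and 4320 in HCT116 (0.68, 0.61 to 0.74). DNMT3B went from 211 to 400 counts in H1299 (0.97, 0.73 to 1.22) and from 674 to 250 in HCT116 (-0.74, -0.96 to -0.53). In H1299, 2 of 12 were at least 2-fold lower, beside 8.27% of all 13900 genes, and 0 at least 2-fold higher, beside 14.1%. In HCT116, 3 of 12 were at least 2-fold lower, beside 21.2% of all 12789 genes, and 0 at least 2-fold higher, beside 12%. Beside UHRF1 these were DNMT3A, with 472 and 94 counts (-1.64, -1.98 to -1.32), and FAM208A, with 1713 and 529 (-1.01, -1.15 to -0.87). The median log2 ratio of the list was -0.25 in H1299 and -0.68 in HCT116, against -0.12 and -0.29 over all genes.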

How the data were processed

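Counts are as the authors deposited them, in 1 table of genes and 1 of TEs, as a whole number for every pair of feature and cell with any count. CASAVA, STAR and the builds GRCh38 and hg38 are named in the submitters' processing notes, without role or version. Not given in the sources used here are the counting tool, the annotation, the cell filter and whether unique molecular identifiers were counted. Cells were assigned to libraries by the library name that each cell name carries.

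Counts were summed by family, position and locus and divided by the library's gene and TE counts (38927267 to 64524196). Ratios carry exact conditional binomial intervals, shares exact Clopper-Pearson intervals and levels exact Poisson intervals, and the difference between lines a normal one. A count of 0 was set to 3 counts. The share of cells was taken after hypergeometric thinning to 3300 counts with a fixed seed. No doublet caller was run. The ratio code was tested on simulated data (Python 3.11.15, numpy 2.4.6, pandas 2.3.3, scipy 1.17.1).

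Named families were the 8 with most counts in either DAC+SB library, the 5 highest and 3 lowest ratios per line among families with at least 100 counts, and those listed in 1 library of a line with at least 1000 counts. Named loci were the 5 with most counts in each library and the 3 highest and 3 lowest ratios per line. MSTC, MLT1O, the MLT2A1 loci, locus 4590136 and the genes were named after their values were seen, as were the overlap index, its threshold and the 21 cells chosen. The members and lists were chosen with earlier results of these data known. Sequences and transcripts come from GENCODE release 29, in which 4 of the 15 coinciding gene names were found, and gene positions from RefSeq (GRCh38.p14). The value of 1 gene of the HCT116 marker list is not reported here on its own.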

Additional observations from a re-analysis of the deposited data

Results flagged for a closer look

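Of the 15 genes that coincided with an MST or MLT locus, 9 had at least 100 counts in a library of each line, and 4 of these had log2 ratios (DAC+SB over DMSO) of opposite sign in the lines, as did 24.7% of all 12644 genes with as many counts. AC106875.1, matched with the MSTA locus 2936544, had at least 6.46 in H1299 and -1.52 in HCT116, so that the H1299 ratio was higher by at least 7.97. FABP6, matched with an MLT1O locus, had 6.34 and -1.01, a difference of 7.35. The locus held 273 of the 3719 FABP6 counts in control HCT116 and its class was listed in no other library. A gene with a clone-based name, matched with the MSTA locus 5005307, had 8, 579, 692 and 304 counts in control H1299, treated H1299, control HCT116 and treated HCT116, ratios of 6.23 and -0.50 and a difference of 6.73. CRNDE, matched with the MSTA locus 2212152, went the other way, with -0.23 in H1299 and 1.38 in HCT116, a difference of -1.61. The locus had 937 of the 1242 CRNDE counts in treated HCT116, and 4 counts in control HCT116, where CRNDE had 768. The higher HCT116 value thus rested on counts of the locus. The first 3 genes had at most 8 listed counts in control H1299 and at least 692 in control HCT116. Feature 1 of each was not listed in control H1299 and was counted there as 0. With 1 library in each group these differences were not tested.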

How the results depend on the processing

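With 1 library per group, values are compared with counting error alone, and depth limits the families and loci with few counts. No paired analysis was possible because the labels give no replicate numbers and each group is 1 library. The H1299 log2 ratio of 1.80 was 2.52 over all listed classes, 1.98 over classes listed in all 4 libraries, 1.28 without the leading locus and 1.88 without loci that coincide with a gene. The HCT116 ratio of 2.49 was 2.73, 2.22, 2.64 and 2.85 in the same order, and 2.57 with gene counts alone as denominator. The last 2 settings were chosen after seeing the data. The difference between the lines of -0.69 was -0.21, -0.24 and -1.36 under the first 3 settings, and kept its sign. Families at least 4-fold higher numbered 1 of 7 in H1299 and 2 of 11 in HCT116. At 2-fold they numbered 4 and 9, without each family's leading locus 2 of 5 and 4 of 9, and over all listed classes 1 of 9 and 4 of 13. The shares of cells with a member count were 77.6%, 98.3%, 85.3% and 97.9% without thinning. Over classes listed in all 4 libraries they were 18.9%, 50.4%, 11.3% and 41.4%. Direction reversed for MLT1H-int in H1299 (-0.22) and MLT1F1 in HCT116 (2.22) without the leading locus, and for MLT2B3 in H1299 over all listed classes (-0.83). MST-int in H1299, at 0.19 with an interval that includes 0, was -0.54 over all listed classes, and MSTC in HCT116 was -0.83 without its leading locus. Mean shares over cells, a denominator that leaves out mitochondrial and ribosomal protein genes, and leaving out the 5% of cells with most counts moved neither line's ratio beyond counting error.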
